A study of Mus musculus with 9 samples.

Results

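The genes of the proteasome were followed across 3 groups of sorted mouse marrow progenitors. They were taken by symbol: every gene whose annotated symbol starts with Psma, Psmb, Psmc, Psmd or Psme followed by a digit and that had a probe set of its own. Of 18193 genes with such a probe set, 44 qualified, through 91 probe sets, and each gene was read from its brightest probe set by the mean over all 9 arrays. The symbol rule itself uses no measured difference, but it was set with earlier results of these data known. Of the 44, 43 lay above the filter on dim genes (a mean log2 value of 4.03) and were tested. Psmb11, the catalytic subunit that is made in the thymus, lay below it, at 2.87 to 3.98 on the 9 arrays. Psmc3ip and Psme3ip1 carry a matching symbol but are no subunits: they are named for binding Psmc3 and Psme3. Psmd5, Psmd9 and Psmd10 are chaperones that help assemble the regulatory particle. Psme2 shared its probe set with a second gene and was not analysed here.

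The arrays were hybridised with RNA of Lin-Sca1+cKit+ (LSK) cells, the marrow fraction that holds stem cells and multipotent progenitors, from C57BL/6 recipients. Donor marrow cells, depleted of cells with lineage markers, had been prestimulated in culture with cytokines. They were transduced with retroviral vectors and injected into lethally irradiated mice, and LSK cells were sorted 8 weeks after transplantation. The 3 control arrays came from mice transplanted with wild type LSK cells. Mice given dnMPL transduced LSK cells supplied the 3 arrays of GFP-negative and the 3 arrays of GFP-positive LSK cells. The labels do not spell out the transgene's name. GFP marks cells with the transgene, and the labels name neither its promoter nor a vector in the controls, so effects of transduction and of dnMPL cannot be told apart. The labels do not say whether the GFP-negative and GFP-positive arrays come from the same mice. GFP-negative cells may descend from untransduced donor cells or from cells of the host. Each array held the pooled marrow of 2 to 5 mice, and with 3 arrays a group the number of arrays sets how precise a value can be.

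The proteasome is the protease complex that degrades proteins tagged with ubiquitin. Its barrel-shaped core has outer rings of alpha subunits (Psma), which gate the entry, and inner rings of beta subunits (Psmb), of which Psmb5, Psmb6 and Psmb7 carry the constitutive active sites. A regulatory particle of ATPases (Psmc) and other subunits (Psmd) binds tagged proteins, unfolds them and feeds them into the core, and activators (Psme) open the core without needing ubiquitin. In cells of the blood lineages and under interferon gamma, Psmb8, Psmb9 and Psmb10 take the places of Psmb5, Psmb6 and Psmb7 to form the immunoproteasome, which shapes the peptides shown on MHC class I.

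The 3 immunoproteasome genes are looked at apart, and the stretches before their start sites are shown because they are switched on together in many cell types. The sequences are the 250 bases before each annotated start, from RefSeq (GRCm38.p6), written 5′ to 3′ on the gene's strand. Psmb8 lies on the plus strand (chr17:34197945-34198194), Psmb9 on the minus strand of the same chromosome (chr17:34187331-34187580) and Psmb10 on the minus strand of chromosome 8 (chr8:105938393-105938642). Capitals mark the matches to the 4 motifs searched.
Psmb8: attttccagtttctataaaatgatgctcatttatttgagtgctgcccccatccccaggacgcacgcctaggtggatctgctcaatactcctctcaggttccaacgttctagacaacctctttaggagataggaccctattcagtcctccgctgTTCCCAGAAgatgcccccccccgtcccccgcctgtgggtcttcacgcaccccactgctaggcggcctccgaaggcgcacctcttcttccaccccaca
Psmb9: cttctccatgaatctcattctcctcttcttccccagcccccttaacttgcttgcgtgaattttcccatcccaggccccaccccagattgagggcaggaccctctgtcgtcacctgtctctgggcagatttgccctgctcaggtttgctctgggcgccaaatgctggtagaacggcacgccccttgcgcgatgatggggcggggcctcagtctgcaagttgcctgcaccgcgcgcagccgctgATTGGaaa
Psmb10: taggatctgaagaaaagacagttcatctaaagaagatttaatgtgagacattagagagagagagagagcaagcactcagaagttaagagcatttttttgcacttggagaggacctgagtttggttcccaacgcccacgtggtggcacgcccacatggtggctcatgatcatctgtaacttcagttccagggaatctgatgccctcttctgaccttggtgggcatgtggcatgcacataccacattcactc

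The motifs were searched on both strands in the whole RefSeq windows of 300 bases, which add 50 bases from the start on. Windows were found for 37 of the 44 genes (40 windows), and 32851 windows of all genes served for comparison. TTCNNNGAA, the form bound by STAT factors, was present in 2 member windows (5%, against 8.3% of all windows), those of Psmb8 and Psmd2, and the Psmb8 match lies at positions -97 to -89 from the start. A pair of GAAA runs with any 2 bases between them, the form bound by interferon regulatory factors, was present in 4 member windows (10% against 3.44%), those of Psmb3, Psmd4, Psmd9 and Psme1. TGACNNNGC, the core bound by Nfe2l1 and Nfe2l2, was present in 6 (15% against 12.4%), Psmb5 and Psmb6 among them, and CCAAT in 16 (40% against 37.4%). The CCAAT match of Psmb9 is on the opposite strand, at positions -8 to -4, and the Psmb10 window holds no match to any of the 4. A match is a description of the letters only.

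Array medians lay between 4.52 and 4.64. The least reliable arrays by limma's array weights were control 3 (0.364) and GFP-positive 2 (0.369), while the other 7 weighed 0.809 to 2.38. On these arrays the 3′ probe set of Gapdh exceeded the 5′ probe set by 3.87 and 3.22, and elsewhere by 2.47 to 2.89. A wide gap between them is a sign of incomplete transcripts. Of 8 LSK and progenitor genes, 7 were measured, among them Kit, Cd34 and Flt3. Their mean level was 8.498 on GFP-positive 2 and 9.02 to 9.42 on the other arrays. The gate's own Ly6a (Sca1) was not analysed here. Genes of granulocytes, erythroid cells and monocytes and macrophages had higher mean levels on every dnMPL array than on every control array. The 11 of 12 granulocyte genes that were measured had mean levels of 6.95 to 9.47 on the control arrays, 9.65 to 10.98 on the GFP-negative arrays and 10.3 to 11.5 on the GFP-positive arrays. The 7 of 9 erythroid genes that were measured had mean levels of 5.22 to 5.38, 6.74 to 7.03 and 7.04 to 7.20. The 8 of 8 monocyte and macrophage genes that were measured had mean levels of 5.40 to 5.63, 6.20 to 7.22 and 5.98 to 7.39. B cell genes (7 of 8 measured) had mean levels of 3.76 to 5.69 on the control arrays and 4.79 to 5.81 on the GFP-negative arrays, and were above both on the GFP-positive arrays, at 6.16 to 6.70. Dendritic cell and MHC class II genes (8 of 8 measured) had mean levels of 6.18 to 6.55, 6.32 to 7.08 and 6.65 to 7.24. T and NK cell genes lay near the filter, at 4.0006 to 4.09 on the control arrays and 4.13 to 4.65 on the dnMPL arrays, and endothelial and stromal genes at 3.32 to 4.59 over all arrays. In bulk RNA, fewer cells of a type and less RNA per cell cannot be told apart, and the part of these markers in the values below was not tested.

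GFP-positive cells were compared with controls to ask which genes differ in progenitors that carry dnMPL. No proteasome gene passed the test. In limma 0 of 43 members had an adjusted p under 0.05, as did 0% of all 12398 genes tested (smallest adjusted p = 0.228 over all genes and 0.744 among the members). At an unadjusted p under 0.05, 1 member was found, Psmd7 (2.33%, against 6.49% or 805 of all genes). Ranges did not overlap in 2 members (4.65%, against 8.61% of all genes), with Psmd7 higher and Psmd10 lower in GFP-positive cells. By point estimate 27 of 43 members (62.8%, against 47.2% of all genes) were higher, and the median difference was 0.075 on the log2 scale, against -0.028 over all genes. The members ran from -1.03 for Psmc3ip to 0.88 for Psmd7. Psmd4 was also among the 5 highest, at 0.52 (0.028 without control 3), and Psmd13 among the 5 lowest, at -0.24.

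GFP-negative cells, which came from mice given dnMPL transduced cells and were sorted as lacking the marker, were compared with the same controls, so the values of both comparisons share these arrays. Again 0 of 43 members passed limma at an adjusted p under 0.05, as did 0% of all genes (smallest adjusted p = 0.327 over all genes and 0.862 among the members). Psma6 was the member with an unadjusted p under 0.05 (2.33%, against 5.57% or 691 of all genes). Ranges did not overlap in 3 members (6.98%, against 11.4%), with Psma6 and Psmd13 higher and Psme3 lower in GFP-negative cells. By point estimate 28 of 43 members (65.1%, against 46.5%) were higher, with a median difference of 0.22 against -0.038 over all genes.

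Between the fractions of the dnMPL mice, 0 of 43 members passed, as did 0% of all genes (smallest limma adjusted p = 0.9998 in both), and 0 members had an unadjusted p under 0.05 (against 2.55% or 316 of all genes). Psmb1 was higher and Psmd13 lower in GFP-positive than in GFP-negative cells with no overlap of ranges (4.65%, against 6.4%). In this comparison 14 of 43 members (32.6%, against 51.8%) were higher in GFP-positive cells, and the median difference was -0.039, against 0.015 over all genes. The highest members were Psma8 (1.14), Psmd11 (0.56), Psmb1 (0.53), Psme3 (0.44) and Psmd7 (0.43). The lowest were Psmc3ip (-0.77), Psmc1 (-0.68), Psmb7 (-0.67), Psma4 (-0.61) and Psmd13 (-0.56). The standard error (SE) of a difference had a median of 0.378 among the members, so that most differences were smaller than their own error.

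**Figure D1:**
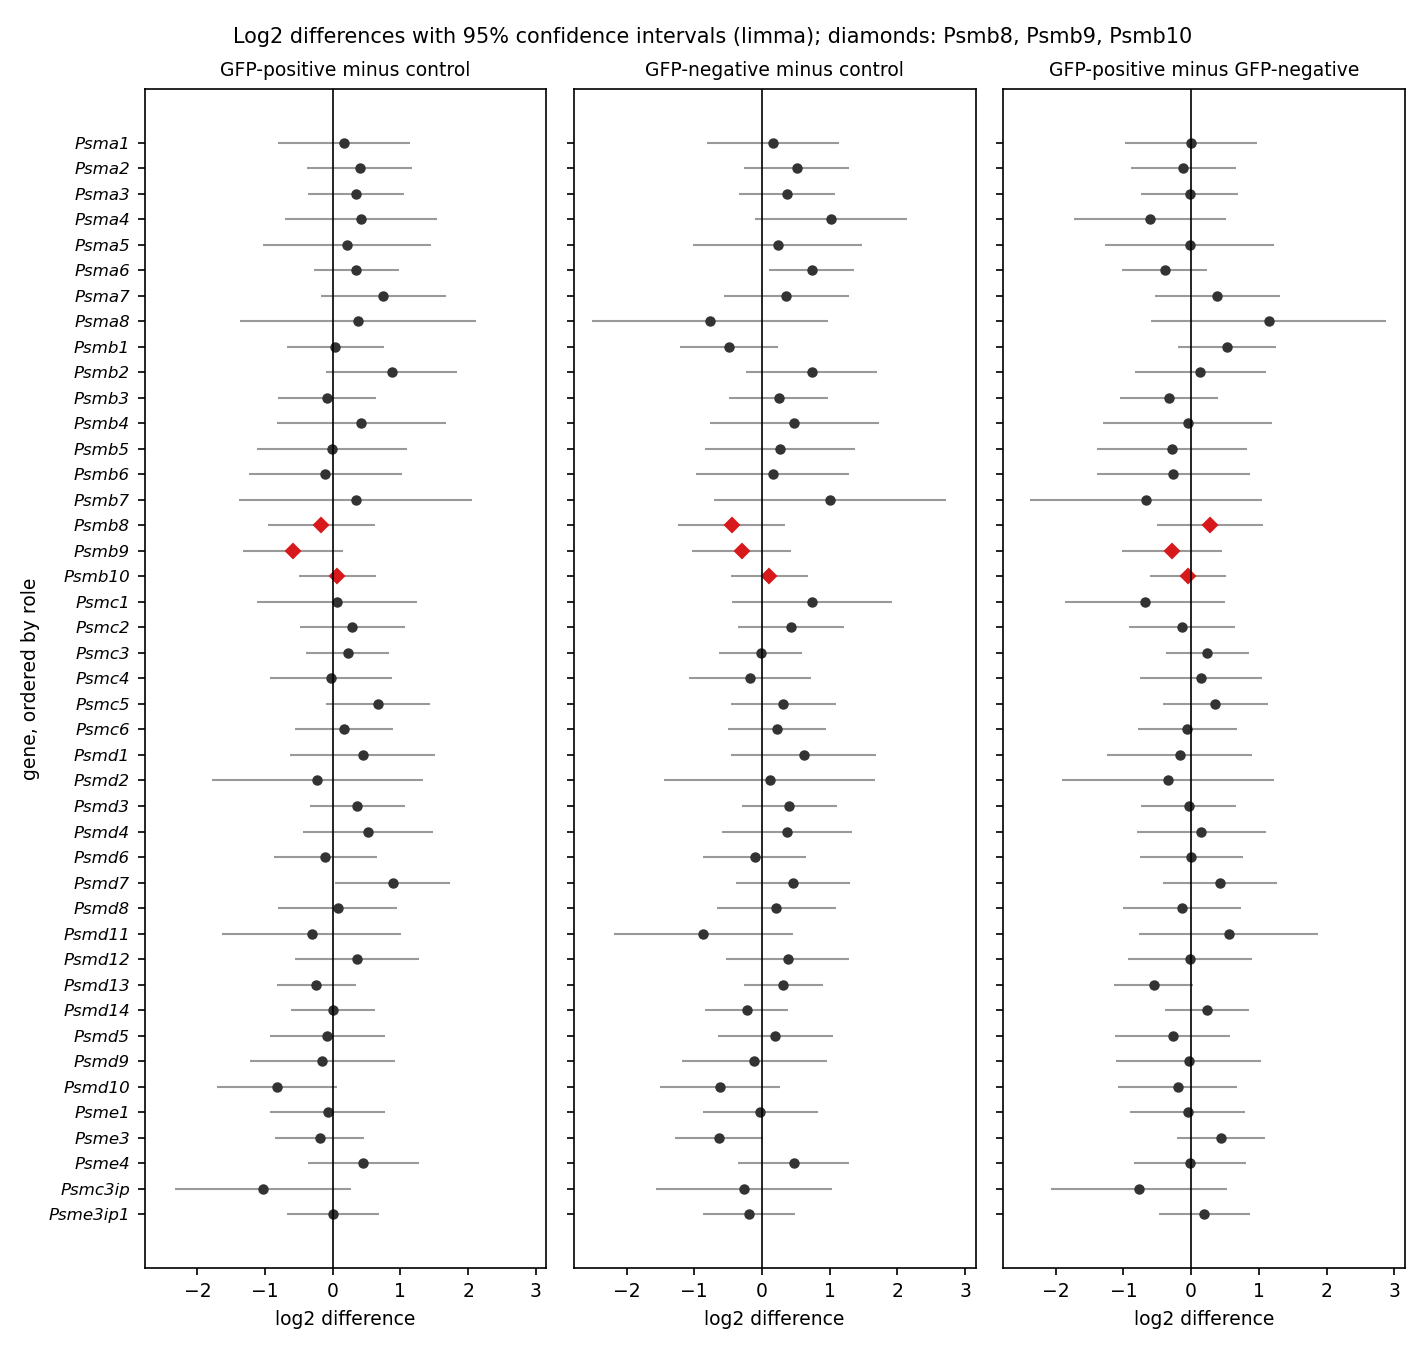
Differences on the log2 scale between group means (horizontal axis) for the 43 tested genes (vertical axis, ordered by role), with lines for the 95% confidence interval from limma; red diamonds are Psmb8, Psmb9 and Psmb10. Most points in the left and middle panels lie right of 0 (27 and 28 of 43), and the intervals of nearly all genes span 0.

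The counts against control turned on single arrays, control 3 in both fractions and GFP-positive 3 in GFP-positive cells. Control 3 lay below the mean of controls 1 and 2 in 39 of 43 members (90.7%, against 52.02% of all genes), with a median log2 difference of -0.77 against -0.040 over all genes. It was the lowest of all 9 arrays in 18 members (41.9%), and in 18.9% of all genes. The gap was widest in Psmb4, a beta ring subunit, which stood at 8.41 on control 3 and at 9.74 to 10.8 on the other arrays, and in Psma8, Psmc1, Psma4 and Psma5. Psmd11, Psmd5, Psme4 and Psme3ip1 were the members that lay higher on control 3, Psmd11 by 1.59. Psmb3, Psmb10, Psmd14, Psmd7 and Psmc3 lay lower by 0.032 to 0.056. Without control 3, 16 of 43 members were higher in GFP-positive cells, with a median of -0.100, and 19 of 43 in GFP-negative cells, with a median of -0.068, so the sign of both medians turned. Of all genes, 46.9% and 44.9% were higher in these fits, with medians of -0.031 and -0.051. Without GFP-positive 3, 20 of 43 members were higher in GFP-positive cells than in controls, with a median of -0.094 (against 48.9% and -0.013 over all genes). Leaving out any other array of the groups compared kept the medians above 0, at 0.17 to 0.29 in GFP-positive and 0.13 to 0.35 in GFP-negative cells. Between the fractions the median was -0.21 without GFP-positive 3 and 0.0046 without GFP-negative 2, where 23 of 43 members were higher in GFP-positive cells. Over all genes these medians were 0.014 and 0.022, and 52.5% of all genes were higher without GFP-negative 2. The Gapdh gap was also widest on control 3, and its part in these values was not tested.

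**Figure D2:**
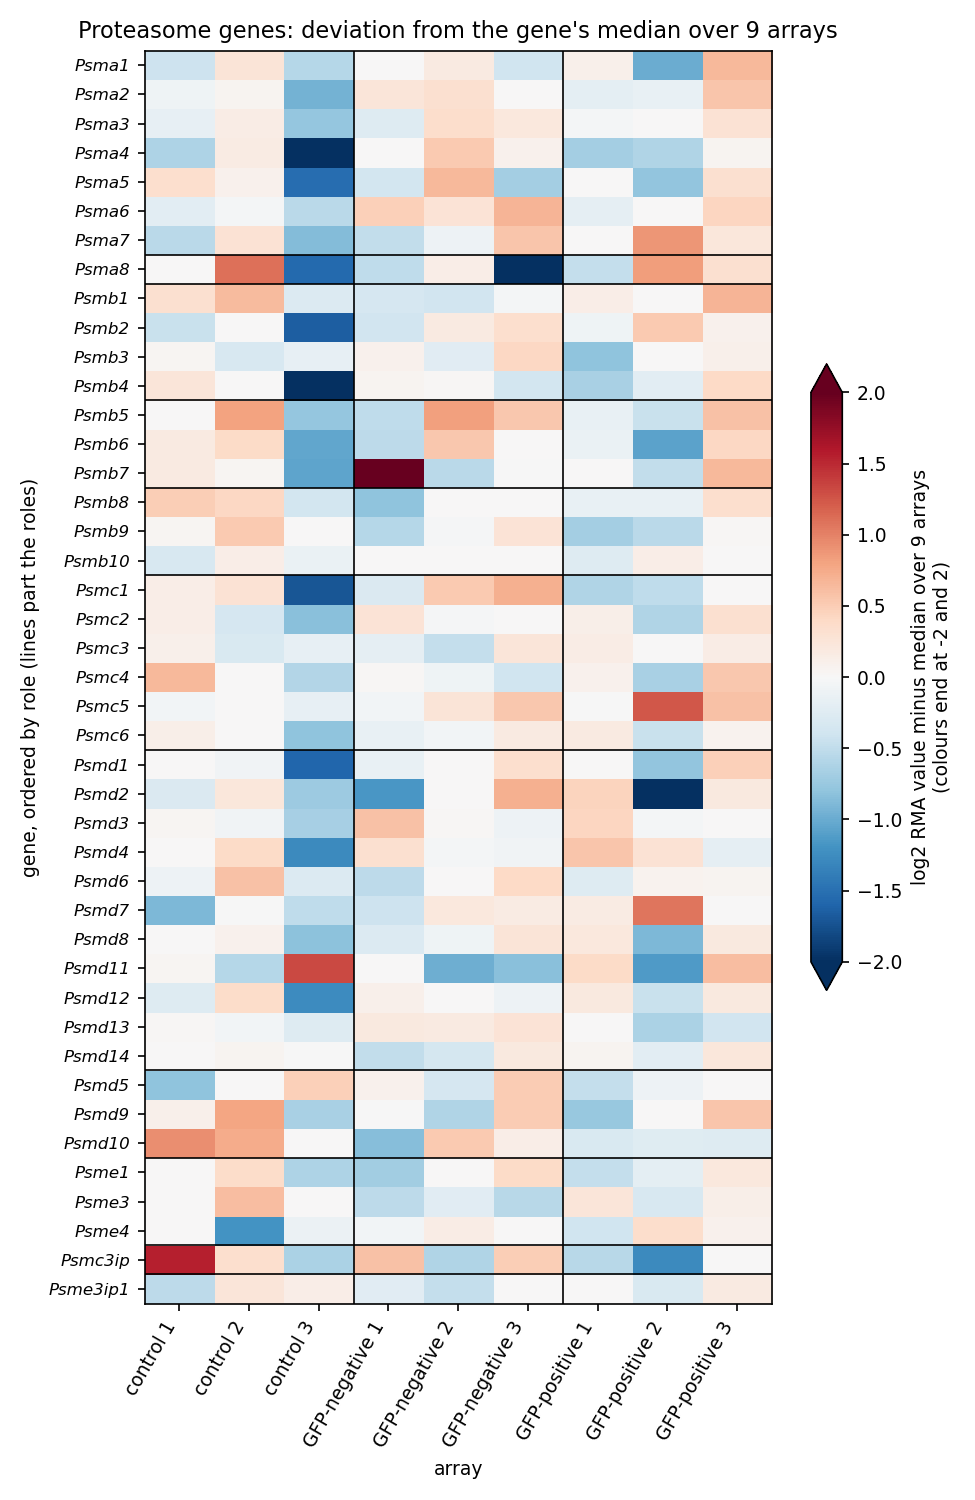
Each gene's log2 RMA value minus its own median over the 9 arrays (colour, ending at -2 and 2), with genes in rows by role and arrays in columns by group. Control 3 is blue in most rows, below the mean of the other controls in 39 of 43 genes, and GFP-negative 1 stands out red for Psmb7.

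GFP-positive 2, the other array that stood apart, lay below the mean of GFP-positive 1 and 3 in 30 of 43 members (69.8%, against 48.6% of all genes), by a median of 0.25. Psmd2, the large scaffold subunit of the regulatory particle, stood at 5.72 on this array and at 6.67 to 8.53 on the others. Without it, 31 of 43 members were higher in GFP-positive cells than in controls (median 0.29), and 24 of 43 were higher than in GFP-negative cells (median 0.043). Of all genes, 46.7% and 51.6% were higher in these fits. With control 3 and GFP-positive 2 both left out, 22, 19 and 24 of 43 members were higher in the comparisons in the order given, with medians of 0.067, -0.068 and 0.043. The shares over all genes were then 44.6%, 44.9% and 51.6%, with medians of -0.048, -0.051 and 0.013. No proteasome gene passed limma in any of these fits.

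**Figure D3:**
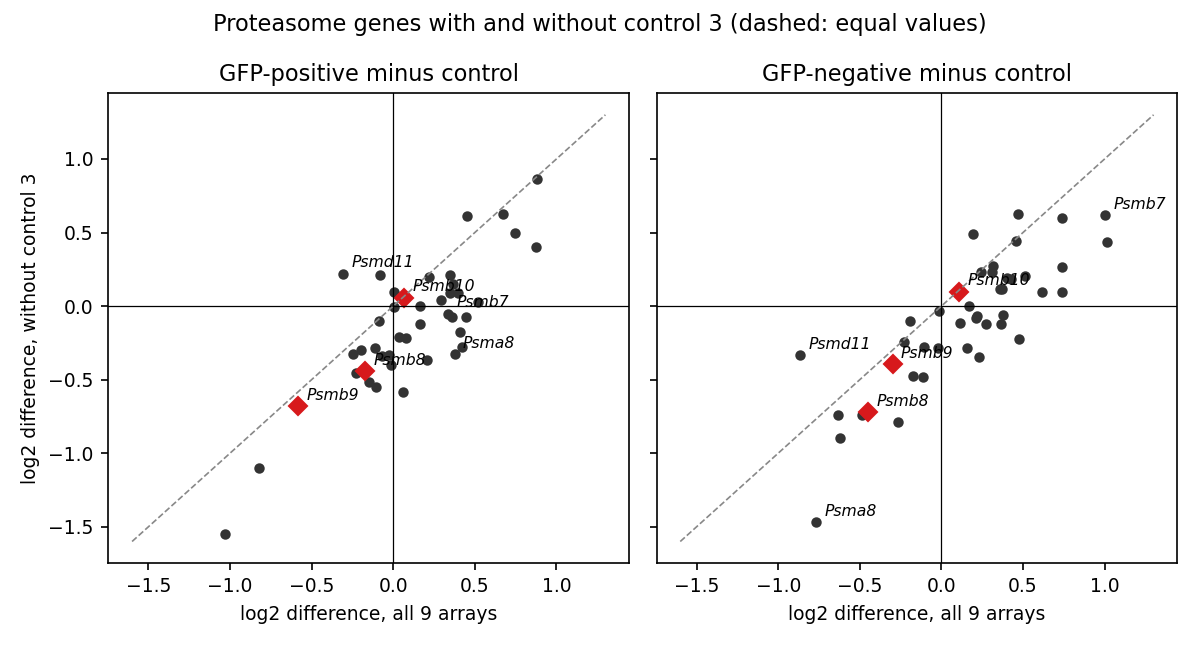
Difference on the log2 scale for each of the 43 genes with all 9 arrays (horizontal axis) and without control 3 (vertical axis), for GFP-positive (left) and GFP-negative (right) cells minus controls; the dashed line marks equal values and red diamonds are Psmb8, Psmb9 and Psmb10. Most points lie below the line, and the median moves from 0.075 to -0.100 on the left and from 0.22 to -0.068 on the right.

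The immunoproteasome genes passed the test in no comparison. Psmb8, which replaces Psmb5 and carries the chymotrypsin-like site, stood at 10.67, 10.6 and 9.81 on controls 1 to 3, at 9.38, 10.18 and 10.18 on the GFP-negative arrays and at 10.03, 10.02 and 10.5 on the GFP-positive arrays. Controls 1 and 2 were the highest arrays and GFP-negative 1 the lowest, while control 3 lay among the dnMPL arrays, so all groups overlapped. Psmb8 differed by -0.17 ± 0.35 (SE) in GFP-positive and by -0.45 ± 0.35 in GFP-negative cells against control, and by 0.28 ± 0.35 between the fractions (limma adjusted p = 0.993, 0.926 and 0.9998). Without control 3 the first 2 of these differences were -0.44 and -0.72. The 95% interval of the first ran from -0.96 to 0.62.

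Psmb9, which replaces Psmb6, was lowest in GFP-positive cells by point estimate. It stood at 10.03, 10.5 and 9.996 on the controls, at 9.42, 9.97 and 10.3 on the GFP-negative arrays and at 9.32, 9.46 and 10.02 on the GFP-positive arrays. GFP-positive 1 and 2 were below all controls, but GFP-positive 3 lay above control 3, so the groups overlapped. The differences were -0.58 ± 0.33 (SE) in GFP-positive and -0.30 ± 0.33 in GFP-negative cells against control, and -0.285 ± 0.33 between the fractions (limma adjusted p = 0.821, 0.938 and 0.9998). The first kept its sign when any array was left out (-0.79 to -0.41), and its 95% interval with all arrays ran from -1.32 to 0.15.

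Psmb10, which replaces Psmb7, varied least of the 43. Its controls read 7.75, 8.2 and 7.94, all GFP-negative arrays 8.07, and the GFP-positive arrays 7.81, 8.21 and 8.07. The groups lay on top of each other, and the range over 9 arrays was 0.46, with 1.25% of all genes having a smaller one. Equal values on several arrays arise from the median polish in RMA, so the GFP-negative arrays may have varied more than these values show. Such ties were found in 4 members (Psmb10, Psmb8, Psmd5 and Psme1). Psmb10 differed by 0.069 ± 0.25, 0.11 ± 0.25 and -0.042 ± 0.25 (limma adjusted p = 0.993, 0.971 and 0.9998). In exact two-sided permutation tests of 3 against 3 arrays, whose smallest possible p is 0.1, p for GFP-positive against control was 0.8 for Psmb8, 0.2 for Psmb9 and 0.7 for Psmb10.

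**Figure D4:**
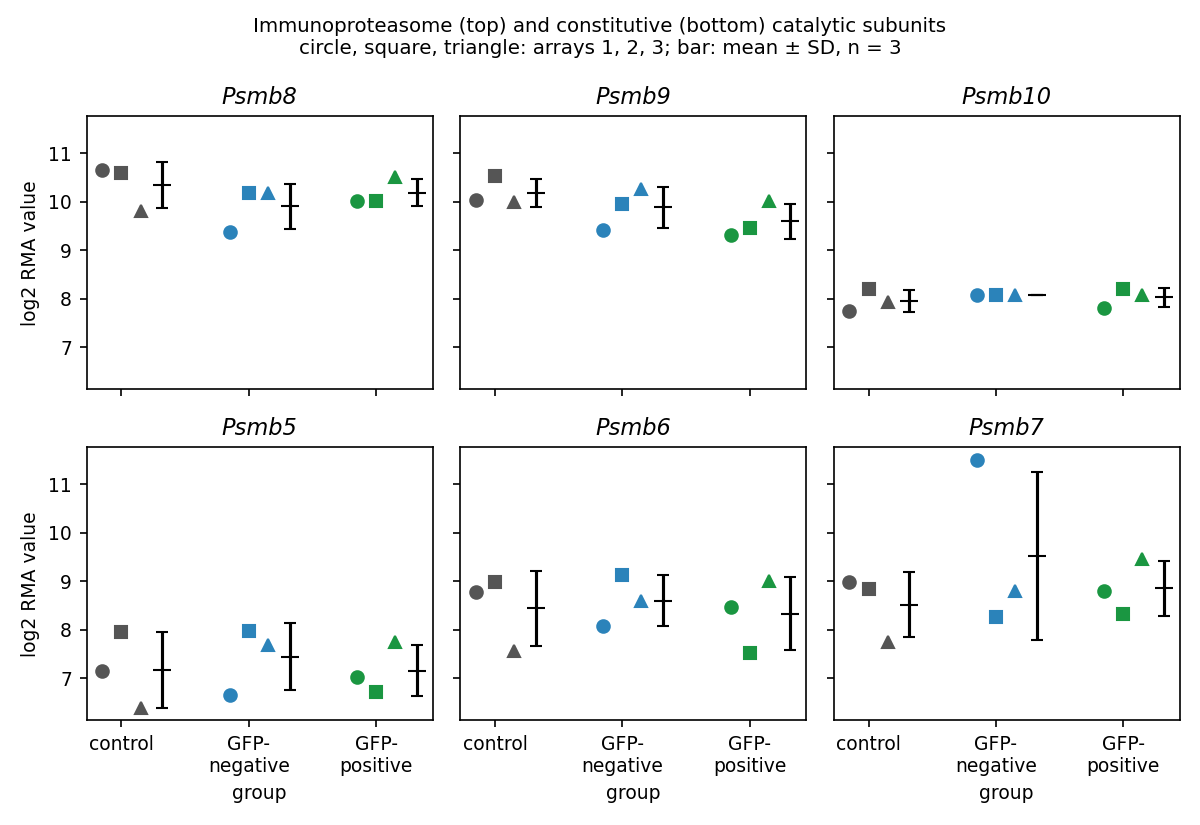
Log2 RMA values (vertical axis) of the immunoproteasome genes (top) and the constitutive genes whose places they take (bottom), by group; circles, squares and triangles are arrays 1, 2 and 3, and bars are mean ± SD, n = 3. All groups overlap for each of the 6 genes, and Psmb7 on GFP-negative 1 (11.5) lies far from its other arrays.

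The constitutive catalytic genes overlapped between groups as well. Psmb5 stood at 7.16, 7.96 and 6.39 on the controls, at 6.66, 7.97 and 7.69 on the GFP-negative arrays and at 7.02, 6.71 and 7.75 on the GFP-positive arrays. Psmb6, the caspase-like subunit, read 8.78, 8.99 and 7.56 on the controls, 8.07, 9.13 and 8.597 on the GFP-negative arrays and 8.47, 7.53 and 9.01 on the GFP-positive arrays. Control 3 was the lowest array for Psmb5 and Psmb7, and GFP-positive 2 for Psmb6. Psmb7, the trypsin-like subunit, was at 8.99, 8.84 and 7.74 on the controls, at 11.5, 8.27 and 8.8 on the GFP-negative arrays and at 8.8, 8.32 and 9.45 on the GFP-positive arrays. Its difference of 1.00 ± 0.77 (SE) in GFP-negative cells (limma adjusted p = 0.926) rested on GFP-negative 1, without which it was 0.013. Against control, Psmb5 and Psmb6 differed by -0.014 ± 0.49 and -0.11 ± 0.502 in GFP-positive and by 0.27 ± 0.49 and 0.16 ± 0.502 in GFP-negative cells.

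To set each immunoproteasome gene against its constitutive counterpart, the difference of their log2 values was taken on each array and centred over the 9 arrays. Psmb8 minus Psmb5 was at 0.29 ± 0.48 in controls, -0.43 ± 0.26 in GFP-negative and 0.14 ± 0.28 in GFP-positive cells (mean ± SD, n = 3 each). Psmb9 minus Psmb6 was at 0.31 ± 0.62, -0.14 ± 0.42 and -0.17 ± 0.58, and Psmb10 minus Psmb7 at 0.39 ± 0.72, -0.51 ± 1.74 and 0.12 ± 0.65. Psmb8 minus Psmb5 ran from -0.69 to -0.18 on the GFP-negative arrays and from -0.13 to 0.42 on the GFP-positive arrays, so every GFP-positive array lay above every GFP-negative array, a difference that was not tested. The controls overlapped with both fractions, with the GFP-negative arrays through control 2 (-0.26). For the other pairs all groups overlapped.

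The alpha ring gave the most even picture. All 7 subunits, Psma1 to Psma7, were higher by point estimate in both dnMPL fractions than in controls, with medians of 0.35 in GFP-positive and 0.37 in GFP-negative cells, and 0 of 7 passed the test. Without control 3, 4 of 7 and 6 of 7 were higher, with medians of 0.090 and 0.11, and without GFP-positive 3, 5 of 7 were higher in GFP-positive cells (median 0.17). Psma6 had the smallest p in GFP-negative cells. It stood at 10.9, 11.1 and 10.6 on the controls, at 11.6, 11.4 and 11.8 on the GFP-negative arrays and at 10.9, 11.1 and 11.5 on the GFP-positive arrays. The GFP-negative arrays were all above the controls, while the GFP-positive arrays overlapped with both groups. The difference was 0.74 ± 0.28 (limma adjusted p = 0.862) in GFP-negative cells, 0.60 to 0.85 with any array left out, and 0.35 ± 0.28 (adjusted p = 0.916) in GFP-positive cells. All 3 Psma6 probe sets above the filter were higher in GFP-negative cells, by 0.21 to 0.74.

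Psma4 differed by 1.02 ± 0.50 in GFP-negative cells (limma adjusted p = 0.884). Its controls read 8.24, 9.02 and 6.88, and the GFP-negative arrays 8.86, 9.38 and 8.95. Control 3 was far below the other controls, and without it the difference was 0.43. Psma7 read 9.64, 10.5 and 9.32 on the controls and 10.2, 11.1 and 10.4 on the GFP-positive arrays, which overlapped, with a difference of 0.74 ± 0.41 (limma adjusted p = 0.818). Psma8, the alpha subunit of the testis, was among the dimmest and most variable members, at 3.48 to 6.96 over the arrays, and its estimates were 0.38 ± 0.78 and -0.77 ± 0.78 against control.

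Of the beta subunits without an active site, Psmb2 differed most from control. It stood at 9.54, 9.99 and 8.34 on the controls, 9.601, 10.2 and 10.3 on the GFP-negative arrays and 9.91, 10.5 and 10.1 on the GFP-positive arrays. GFP-negative 1 lay between controls 1 and 2, and GFP-positive 1 below control 2, so the groups overlapped. The differences were 0.87 ± 0.43 in GFP-positive and 0.74 ± 0.43 in GFP-negative cells (limma adjusted p = 0.788 and 0.906), and 0.399 and 0.26 without control 3. Psmb1 stood apart from its ring, with 8.45, 8.75 and 7.85 on the controls, 7.78, 7.74 and 8.08 on the GFP-negative arrays and 8.25, 8.12 and 8.798 on the GFP-positive arrays. Every GFP-positive array was above every GFP-negative array, by 0.53 ± 0.32 in the mean (limma adjusted p = 0.9998), and the controls overlapped with both. Its 3 probe sets shared the sign of this difference, at 0.096 to 0.53.

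In the regulatory particle the ATPases were higher by point estimate in 5 of 6 (GFP-positive) and 4 of 6 (GFP-negative), with medians of 0.19 and 0.27, which without control 3 came to -0.040 and 0.031. The other subunits were higher in 7 of 11 and 8 of 11, with medians of 0.075 and 0.31, and without control 3 in 4 of 11 and 4 of 11. Without GFP-positive 3, 4 of 6 ATPases and 5 of 11 other subunits were higher in GFP-positive cells, with medians of 0.097 and -0.094. None of the 17 passed. Psmc5, an ATPase, was even among controls, at 7.03, 7.08 and 6.92, and stood at 7.02, 7.33 and 7.61 on the GFP-negative and at 7.07, 8.31 and 7.66 on the GFP-positive arrays. GFP-positive 2, the array that stood apart, was the highest. The difference in GFP-positive cells was 0.67 ± 0.34 (limma adjusted p = 0.801), and 0.36 without GFP-positive 2.

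Psmd7, the partner of the deubiquitinase Psmd14 in the lid, had the smallest p of the members in GFP-positive cells. It stood at 7.29, 8.17 and 7.68 on the controls, at 7.76, 8.39 and 8.35 on the GFP-negative arrays and at 8.35, 9.25 and 8.18 on the GFP-positive arrays. All GFP-positive arrays lay above all controls, GFP-positive 3 (8.18) only just above control 2 (8.17). The difference was 0.88 ± 0.38 (limma adjusted p = 0.744). Without control 3 it was 0.87, and with control 3 and GFP-positive 2 both left out it was 0.54. Its dimmer probe sets did not share it, with differences down to -0.087.

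Psmd13, another lid subunit, was the member with the smallest p between the fractions. Its controls read 7.303, 7.22 and 7.01, the GFP-negative arrays 7.47, 7.45 and 7.55 and the GFP-positive arrays 7.27, 6.65 and 6.88. The GFP-negative arrays lay above all others, and the GFP-positive arrays overlapped with the controls. GFP-positive minus GFP-negative was -0.56 ± 0.26 (limma adjusted p = 0.9998; -0.73 to -0.41 with any array left out), and all 3 probe sets shared its sign. GFP-negative minus control was 0.31 ± 0.26 (adjusted p = 0.926). Psmd11, a lid subunit with 8 probe sets, went against most members. Its brightest probe set read 8.45, 7.84 and 9.74 on the controls, so that control 3 was its highest array, and its differences of -0.31 ± 0.59 and -0.86 ± 0.59 against control came to 0.22 and -0.33 without that array. The 7 probe sets above the filter spanned -1.32 to 0.56 in GFP-positive cells.

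The assembly chaperones were lower by point estimate in 3 of 3 in GFP-positive cells and 2 of 3 in GFP-negative cells, with medians of -0.15 and -0.12. Without control 3, 2 of 3 were lower in each fraction, with medians of -0.51 and -0.48. Psmd10, also known as gankyrin, stood at 7.74, 7.55 and 6.81 on the controls, at 5.96, 7.33 and 6.94 on the GFP-negative arrays and at 6.5, 6.56 and 6.56 on the GFP-positive arrays. The GFP-positive arrays read nearly the same and lay below all controls, and the GFP-negative arrays lay on both sides of them. The difference was -0.82 ± 0.39 in GFP-positive cells (limma adjusted p = 0.773), and it was larger without control 3, at -1.10. In GFP-negative cells it was -0.62 ± 0.39 (adjusted p = 0.912). Psmd9 and Psmd5 differed by -0.15 ± 0.48 and -0.081 ± 0.38 in GFP-positive cells, and by -0.51 and 0.21 without control 3.

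Among the activators, Psme1, a subunit of the interferon-induced cap of the core, read 9.94, 10.3 and 9.32 on the controls, 9.24, 9.94 and 10.3 on the GFP-negative arrays and 9.46, 9.74 and 10.1 on the GFP-positive arrays. The groups overlapped across their whole width, and the differences against control were -0.071 ± 0.38 and -0.022 ± 0.38. Psme3, which forms the nuclear cap, stood at 10.8, 11.4 and 10.8 on the controls, at 10.3, 10.6 and 10.3 on the GFP-negative arrays and at 11.1, 10.5 and 10.9 on the GFP-positive arrays. All GFP-negative arrays were below all controls, by 0.64 in the mean (-0.64 ± 0.29; limma adjusted p = 0.876), but its second probe set above the filter gave 0.66. Psme4, which codes for the large activator PA200, differed by 0.45 ± 0.37 and 0.47 ± 0.37 against control, and its 4 probe sets above the filter spanned -0.67 to 1.002 in GFP-positive cells.

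The genes taken for their symbol alone differed in their spread, with ranges over the 9 arrays of 2.81 for Psmc3ip and 0.77 for Psme3ip1. Psmc3ip, which acts with Mnd1 in homologous recombination, had the lowest estimate of all members in GFP-positive cells. It read 10.01, 8.799 and 7.83 on the controls and 7.904, 7.19 and 8.46 on the GFP-positive arrays, a difference of -1.03 ± 0.58 (limma adjusted p = 0.822). The controls spread widely (SD 1.09) and overlapped with the GFP-positive arrays, and the gene's other probe set differed by 1.13. Psme3ip1 differed by 0.0030 ± 0.301. With these genes left out, 26 of 41 and 28 of 41 members were higher against control, with medians of 0.16 and 0.23.

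Several probe sets of a gene often disagreed. Of the 20 members with 2 or more probe sets above the filter, all shared a sign in 9 members for GFP-positive against control, 9 for GFP-negative against control and 11 for GFP-positive against GFP-negative. Psma2, Psma4, Psma8, Psmb2, Psmb5, Psmb6, Psmb7, Psmb9, Psmb10, Psmc3 and Psmc5 rest on a single probe set. So do Psmd1, Psmd3, Psmd5, Psmd8, Psmd10, Psmd12, Psmd14, Psme1 and Psme3ip1. Psmb8, Psmc1 and Psmd2 have a single probe set above the filter. The range over the 9 arrays had a median of 1.499 among the 43 members. It was smallest for Psmb10 (0.46), Psmd14 (0.71) and Psmc3 (0.72), and largest for Psmb7 (3.77), Psma8 (3.48) and Psmd2 (2.81).

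The genes around the proteasome gave 0 calls in limma in all lists and comparisons, like the members. For the genes below whose ranges did not overlap, the share of all genes without overlap was 8.61% for GFP-positive against control. It was 11.4% for GFP-negative against control and 6.4% between the fractions. Of 26 genes for assembly, regulation and shuttling, 22 were tested, with 12 higher and 10 lower in GFP-positive and 11 higher and 11 lower in GFP-negative cells (medians 0.073 and -0.0067). Without control 3, 5 of 22 were higher in each fraction, with medians of -0.19 and -0.29. Of all genes, 46.9% and 44.9% were higher in these fits. Pomp, the chaperone of the core, stood at 10.2, 10.4 and 9.13 on the controls and differed by 0.41 ± 0.38 and 0.39 ± 0.38, values that were 0.014 and -0.0058 without control 3. Nfe2l1, the transcription factor that drives proteasome genes when the complex is inhibited, differed by 0.0017 ± 0.46 and -0.25 ± 0.46. Its GFP-positive arrays read 6.16, 8.097 and 6.48, and without GFP-positive 2, the highest, the first difference was -0.59. Ube3c, a ubiquitin ligase bound to the proteasome, and Ubqln1, a shuttle for tagged proteins, had the smallest p of this list in GFP-positive cells, at -1.98 ± 0.81 and 1.01 ± 0.42 (limma adjusted p = 0.731 and 0.734), and Ubqln1 came to -0.30 with another probe set. In GFP-negative cells these genes differed by -1.68 ± 0.81 and 0.85 ± 0.42. Nfe2l2, the transcription factor of the oxidative stress response, differed by 0.74 ± 0.37 in GFP-positive cells (limma adjusted p = 0.789). Psmg1, a chaperone of core assembly, read 6.41, 2.81 and 7.21 on the GFP-positive arrays and 6.79 to 7.55 on the controls, a difference of -1.68 ± 0.95 (limma adjusted p = 0.826) that was -0.35 without GFP-positive 2. Zfand5, a protein that activates the proteasome, lay lower on every GFP-negative array (11.4 to 12.04) than on every control (12.3 to 12.5), by 0.58 in the mean (-0.58 ± 0.27; limma adjusted p = 0.879), and the shuttle Ubqln2 differed by -0.57 ± 0.29 (adjusted p = 0.897). Between the fractions the smallest p of this list were those of Psmg1 (-1.29 ± 0.95), Psmg3, another assembly chaperone (-0.35 ± 0.36), Psmf1, an inhibitor of the core (-0.46 ± 0.56), and Zfand5 (0.22 ± 0.27), with overlap in each.

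Uba6, an E1 enzyme that activates ubiquitin and the single gene tested of its list of 6, stood at 8.85, 8.72 and 9.36 on the controls and at 8.19, 7.31 and 7.85 on the GFP-positive arrays. It was lower on every GFP-positive array than on every control, by 1.19 in the mean (-1.19 ± 0.40; limma adjusted p = 0.678).

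MHC class I processing genes use the peptides that the proteasome makes. By point estimate 8 of 12 were lower in GFP-positive and 9 of 12 in GFP-negative cells, with medians of -0.18 and -0.12. Higher were 4 of 12 (against 47.2% of all genes) and 3 of 12 (against 46.5%), beside medians over all genes of -0.028 and -0.038. B2m, the light chain of MHC class I, stood at 13.2, 13.3 and 13.1 on the controls, at 12.8, 12.9 and 12.8 on the GFP-negative arrays and at 12.9, 12.97 and 12.9 on the GFP-positive arrays. The controls were the 3 highest arrays, and the differences were -0.25 ± 0.23 and -0.34 ± 0.23 (limma adjusted p = 0.939 and 0.92). The heavy chain gene H2-K1 differed by -0.46 ± 0.304 and -0.68 ± 0.304 (limma adjusted p = 0.881 and 0.876). Its GFP-positive arrays all lay below all controls, while the GFP-negative arrays overlapped with the controls. The peptide transporter genes Tap1 and Tap2, neighbours of Psmb9 and Psmb8, differed by -0.61 ± 0.51 and -0.24 ± 0.24 in GFP-positive and by 0.17 ± 0.51 and -0.15 ± 0.24 in GFP-negative cells, and Tapbp by 0.47 ± 0.44 and 0.76 ± 0.44. Erap1, the peptidase that trims peptides in the endoplasmic reticulum, had the widest difference of this list against control. It stood at 6.83, 6.67 and 8.16 on the controls, at 6.45, 6.28 and 5.06 on the GFP-negative arrays and at 5.82, 5.07 and 6.98 on the GFP-positive arrays. All GFP-negative arrays lay below all controls, while GFP-positive 3 lay above controls 1 and 2. The differences were -1.27 ± 0.596 in GFP-positive and -1.29 ± 0.596 in GFP-negative cells (limma adjusted p = 0.773 and 0.876), and kept their sign with any array left out (-1.78 to -0.797 and -1.57 to -0.82). Calr, a chaperone of MHC class I folding, read 11.7, 11.3 and 11.9 on the controls, 11.6, 11.6 and 11.5 on the GFP-negative arrays and 12.03, 11.9 and 11.999 on the GFP-positive arrays. The GFP-positive arrays were the 3 highest, by 0.35 ± 0.25 over the controls and 0.44 ± 0.25 over the GFP-negative arrays (limma adjusted p = 0.901 and 0.9998). The heavy chain gene H2-D1 lay lower on every GFP-negative array than on every control (-0.61 ± 0.27; limma adjusted p = 0.876), but with another probe set its difference was 0.53. Between the fractions H2-D1, Tap1 and Tapbpl, a relative of Tapbp, differed by 0.497 ± 0.27, -0.78 ± 0.51 and -0.38 ± 0.395. Nlrc5, the regulator of MHC class I genes, differed by -0.44 ± 0.61 and -0.45 ± 0.61.

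Of 22 genes of interferon signalling and response, 18 were tested, with 10 higher and 8 lower in GFP-positive and 9 higher and 9 lower in GFP-negative cells (medians 0.12 and 0.0032). Irf1, the interferon regulatory factor that acts on Psmb8 and Psmb9, differed by 0.12 ± 0.33 and -0.49 ± 0.33. Ifnar1, a chain of the type I interferon receptor, read 6.75, 6.76 and 6.69 on the controls and 7.49, 7.897 and 7.02 on the GFP-positive arrays, which lay above all controls by 0.73 ± 0.303 in the mean (limma adjusted p = 0.732). Gbp2, a guanylate-binding protein induced by interferon gamma, went the other way by point estimate, at -0.95 ± 0.45 and -0.78 ± 0.45 (adjusted p = 0.773 and 0.906). Irf2, a relative of Irf1, differed by 1.12 ± 0.62 in GFP-positive and 0.80 ± 0.62 in GFP-negative cells (limma adjusted p = 0.818 and 0.926), with overlap in both, and the kinase gene Jak1 by -0.34 ± 0.29 in GFP-negative cells. Between the fractions Ifnar1 and the antiviral gene Rsad2 lay higher on every GFP-positive array than on every GFP-negative array, by 0.82 ± 0.303 and 1.03 ± 0.41 (limma adjusted p = 0.9998 in both), and Irf1 and Irf9 differed by 0.61 ± 0.33 and -0.68 ± 0.39. Against control Rsad2 differed by 0.74 ± 0.41 in GFP-positive cells. Granulocyte, erythroid and monocyte and macrophage genes were higher by point estimate in GFP-positive cells than in controls (11 of 11, 6 of 7 and 5 of 7, 0 past the test), and their part in the values of these lists was not tested.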

How the data were processed

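RNA of 9 sorted samples was hybridised to mouse Affymetrix arrays, 1 array a sample. The authors deposited log2 values made with RMA (no version given), per the submitters' processing notes. RMA subtracts background, quantile-normalizes and combines the probes of a set by median polish. The platform annotation named 1 gene for 34945 of 45101 probe sets, several for 932 and none for 9160 (64 were controls), and genes came from the first class. Scanner files were not analysed here. The 12398 of 18193 genes with a mean above the 40th percentile of probe sets were fitted in limma 3.58.1 (R 4.3.3, lmFit and eBayes over all 9 arrays) with Benjamini-Hochberg adjustment over all of them and a threshold of 0.05. The fit was tested on simulated data. p-values measure the spread between these samples. The labels list the arrays of a group as separate samples, so they served as replicates. The labels do not say whether replicate numbers pair them, and the main fit took them as unpaired.

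The members and lists were chosen with earlier results of these data known. Named were the catalytic and activator genes, in each comparison the 5 highest and 5 lowest members, the 4 genes of each surrounding list with the smallest p in each comparison, Tap1, Tap2, Tapbp, B2m, Irf1, Nlrc5, Pomp and Nfe2l1. Other names, such as Psmb4, Psmd5 or Psmd14, were added after their values were seen. Results for 1 gene are not reported here. Alternatives changed the filter, the probe set, the normalization, the variance prior, array weights, the arrays in the fit and the replicate block. Promoter windows are those of RefSeq (GRCm38.p6). Plots were made in Python 3.11.15 (matplotlib 3.10.9).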

Additional observations from a re-analysis of the deposited data

How the results depend on the processing

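Under every setting tried 0 proteasome genes and 0 of all genes passed limma, with the smallest adjusted p over all genes at 0.0523 (array weights, GFP-positive against control). With all arrays of the groups compared kept, the median of the members was 0.047 to 0.16 in GFP-positive and 0.070 to 0.23 in GFP-negative cells against control and -0.049 to -0.033 between the fractions. Leaving out an array turned its sign in each comparison and moved it between -0.100 and 0.29 in GFP-positive and between -0.068 and 0.35 in GFP-negative cells against control, and between -0.21 and 0.043 between the fractions. The replicate number as a block left the medians at 0.075, 0.22 and -0.039 and gave 0 calls. After each gene's group mean was subtracted, the remaining deviations of same-numbered arrays correlated by -0.29 to 0.099. In the simulated data the fit recovered 0 to 2% of genes changed by 1 on the log2 scale. It recovered 40 to 68% of those changed by 2 and 86 to 94% of those changed by 3. With 3 arrays a group, a gene without a call may therefore still differ.

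Signs of the genes named by rule turned in the following cases, all of them for differences that did not pass in any setting. The cause was not tested beyond the change of probe set or arrays that each setting makes. GFP-positive against control: averaging each gene's probe sets, Psme3 came to 0.22, Psmc3ip to 0.052, Nfe2l2 to -0.19 and Rsad2 to -0.047. With the brightest probe set outside the classes that can bind several transcripts, Psme4 came to -0.67, Psmd11 to 0.56, Psmc3ip to 1.13 and Ubqln1 to -0.30. With array weights Psmb10 came to -0.037, Psmd11 to 0.32, Irf1 to -0.043, Pomp to -0.058 and Nfe2l1 to -0.48, and Nfe2l1 to -0.039 after a further quantile normalization. Without control 3 and GFP-positive 2, Psmb10 came to -0.031, Psmd11 to 0.76, Psmd4 to -0.0076, Irf1 to -0.11, Pomp to -0.055 and Nfe2l1 to -0.62. With 1 array left out, Psmb10 ranged from -0.039 to 0.19, Psmb5 from -0.40 to 0.38, Psmb6 from -0.55 to 0.29, Psmb7 from -0.052 to 0.61, Psme1 from -0.34 to 0.15, Psme3 from -0.31 to 0.0092 and Psme3ip1 from -0.23 to 0.15. Psmd11 ranged from -0.73 to 0.23, Irf1 from -0.019 to 0.23, Nlrc5 from -1.12 to 0.041 and Nfe2l1 from -0.59 to 0.38.

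GFP-negative against control: averaging each gene's probe sets, Psme3 came to 0.016, Psmc3ip to 0.13 and Tap1 to -0.024, and with the other choice of brightest probe set Psme4 to -0.25, Psmd11 to 0.41, Psmc3ip to 0.53, H2-D1 to 0.53 and Ubqln1 to -0.035. Without control 3 and GFP-positive 2, Psmb5 came to -0.12, Psmb6 to -0.29, Tap1 to -0.062 and Pomp to -0.0058. With 1 array left out, Psmb5 ranged from -0.12 to 0.67, Psmb6 from -0.29 to 0.43, Psme1 from -0.29 to 0.27, Psmc3ip from -0.79 to 0.30, Tap1 from -0.062 to 0.42 and Pomp from -0.0058 to 0.63. GFP-positive against GFP-negative: Psmc3ip came to 0.60 and H2-D1 to -0.40 with the other choice of probe set, Zfand5 to -0.0082 with averaged probe sets, Psme4 to 0.018 after a further quantile normalization and Psmb6 to 0.14, Psmg1 to 0.042 and Psmg3 to 0.0065 without control 3 and GFP-positive 2. With 1 array left out, Psmb10 ranged from -0.13 to 0.067, Psmb6 from -0.60 to 0.14, Psmb7 from -1.30 to 0.32, Psme1 from -0.35 to 0.19, Psme4 from -0.19 to 0.18, Psmg1 from -2.16 to 0.042 and Psmg3 from -0.54 to 0.0065.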
